A study of Homo sapiens with 4 samples.

Results

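The acetyl-lysine readers described here are 39 human genes whose proteins carry a bromodomain or a YEATS domain. They were taken by name from the 60675 gene rows of the count table, and all 39 had exactly 1 row. RNA was sequenced from HT1080 cells, a fibrosarcoma line kept in serum-containing medium, in which KDAC8, the lysine deacetylase encoded by HDAC8, was knocked out. All 4 libraries belong to 1 group, sequenced from rRNA-depleted total RNA. A parental or control line was not analysed here, so no effect of the knockout can be read from these values. The labels give neither the number of knockout clones nor whether the replicates were separate cultures, so the spread between libraries may be technical.

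Bromodomains and YEATS domains are typically pockets that bind acetylated lysine, most of it on histone tails, and bring the rest of the protein or its complex to that place. Not every bromodomain need do so, and "reader" here means a gene of the list, since binding was not measured. Acetyltransferases write the mark and deacetylases such as KDAC8 remove it, so readers form the third side of the acetylation system. Some readers only dock, as the BET proteins do, while others also acetylate, methylate, remodel or ubiquitinate what they bind.

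Total expected counts were 39454210 to 45828807 per library. HDAC8 itself stood at 1.98, 2.11, 2.10 and 2.53 CPM in replicates 1 to 4 (counts scaled to the effective library size), a count over the whole gene that does not check the deletion. Mesenchymal markers summed to 10170.0 to 10790.0 CPM with 4 of 5 detected, the exception being S100A4. No epithelial, haematopoietic, endothelial or germ-cell marker of the lists reached 1 CPM in all 4 libraries, with 3 of 4 epithelial and 6 of 8 germ-cell markers at 0 counts throughout. Levels below are CPM, or CPM per kilobase of annotated exon where genes are set against each other, and errors are SD over the 4 libraries. Exonic length is the union of a gene's exons in GENCODE release 29 (GRCh38), some of which these cells may not use.

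Of the 39 reader genes, 36 were detected, meaning 1 CPM or more in all 4 libraries. That is 92.3% of the members, beside 21.4% of all rows and 58.7% of protein-coding rows in the table. The 3 not detected were BRDT, CECR2 and TAF1L. In bulk RNA, few cells with a transcript and little of it in each cell cannot be told apart. Detected members had a median of 77.6 CPM, against 27.6 CPM over the 12978 detected genes, and 28 of the 36 lay above that level. Their exonic lengths are longer, with a median of 7625 bases over all members against 5075 over detected genes. Per kilobase of exon the gap was smaller, 7.40 against 5.57, with 24 of 36 above the median of detected genes. By level, 10 members reached 100 CPM, 25 lay between 10 and 100, and SP140 alone was below 10.

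**Figure D1:**
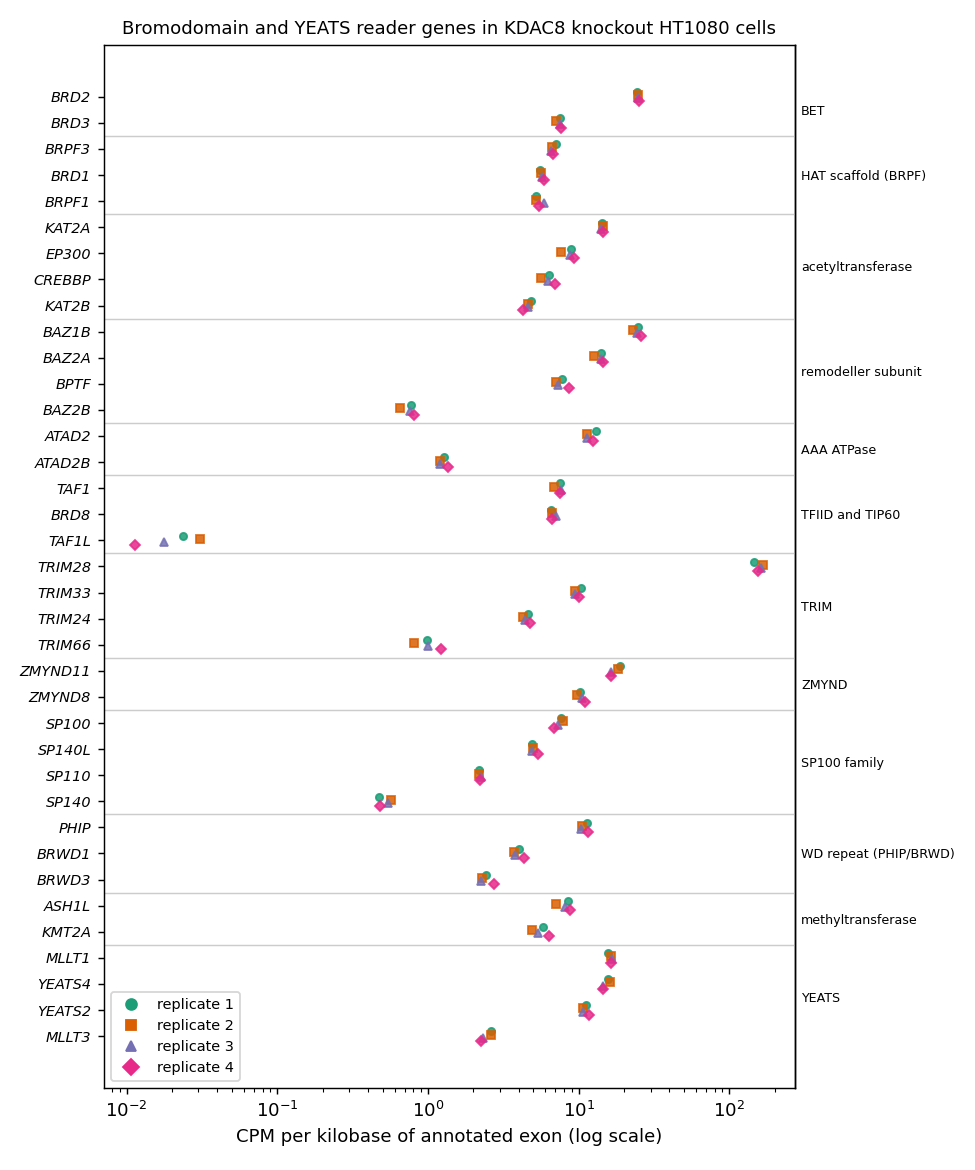
CPM per kilobase of annotated exon (log axis) in each of the 4 libraries for the 37 reader genes with more than 3 counts, grouped by family. TRIM28 lies far to the right at 158 CPM per kilobase, TAF1L far to the left at 0.0209, and for the detected genes the 4 symbols nearly coincide.

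Between libraries, 24 of the 36 tested reader genes (66.7%) varied beyond counting noise, the sense in which "varied" is used throughout (chi-square test of homogeneity, Benjamini-Hochberg adjusted p under 0.05 over 16790 genes). The background was 59.2% of all genes tested and 67.3% of detected genes, so the share among the members was near that of detected genes and below the 76.9% of genes with a mean of 500 counts or more and 5000 or more exonic bases. The test compares these 4 libraries with one another and not conditions. The differences were small. Among the 36 tested members TRIM66 alone reached a range of 1.5 times, which 12.3% of genes tested and 6.56% of detected genes reached while varying, and the median SD of log2 CPM was 0.08 over detected members and 0.11 over detected genes. Without replicate 2, the count fell from 24 to 19: EP300, BAZ1B, BAZ2A, BAZ2B, TAF1, TRIM24, ZMYND8 and YEATS4 no longer passed, while BRPF3, KAT2B and BRD8 did.

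**Figure D2:**
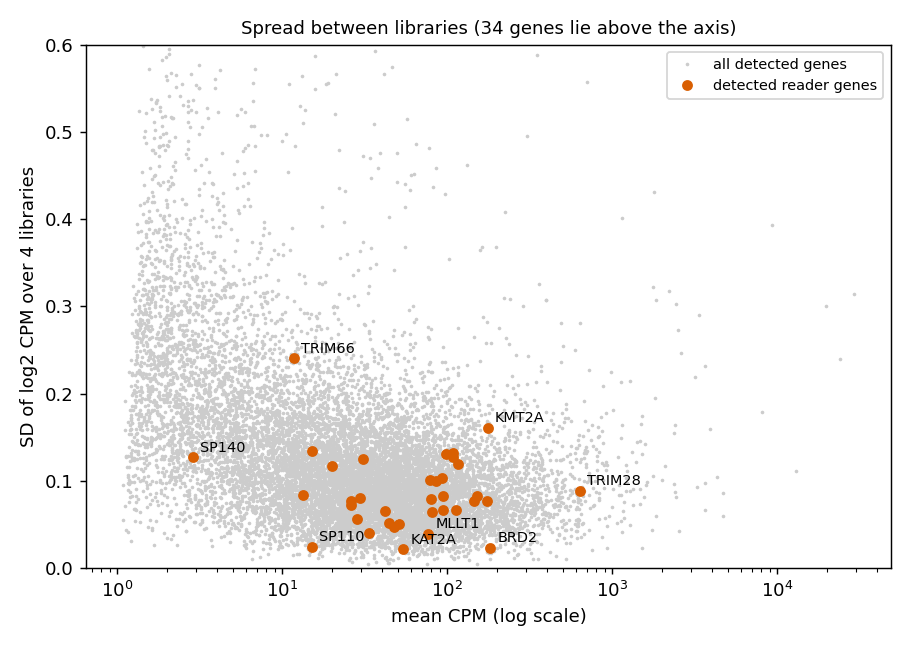
SD of log2 CPM over the 4 libraries against mean CPM (log axis) for all 12978 detected genes (grey, 34 beyond the axis) and the 36 detected reader genes (orange). The readers lie within the grey cloud, with TRIM66 highest at 0.24 and KAT2A lowest at 0.02.

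Among the BET proteins, which read acetylated histone tails with tandem bromodomains and recruit the transcription machinery, BRD2 and BRD3 were detected and BRDT was not. BRD2 (ENSG00000204256, chromosome 6, 32968660 to 32981505, forward strand) had 179, 180.5, 183 and 186 CPM in replicates 1 to 4. BRD3 had 51.9, 48.6, 51.8 and 52.4 CPM. The libraries were close for both genes, and neither varied beyond counting noise (chi-square test of homogeneity, adjusted p = 0.159 and 0.0837), although both passed with total counts as the scaling. Within each library BRD2 exceeded BRD3 per kilobase, with log2 ratios of 1.69, 1.80, 1.72 and 1.73, a mean of 1.74 ± 0.05 or 3.33-fold. An antisense gene, BRD3OS, shares 1281 exonic bases with BRD3 and stood at 22.2 ± 1.33 CPM. Whether the counting used strand is not given in the sources used here, so the split of reads between these rows is uncertain.

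BRDT, the BET gene of male germ cells (ENSG00000137948, chromosome 1, 91949371 to 92014426, forward strand), had no count in any library. A count of 0 allows up to 3, or 0.0176 CPM over the group. Against that floor, BRD2 was at least 10300-fold higher in CPM and at least 6100-fold higher per kilobase. CECR2 (ENSG00000099954, chromosome 22, 17359949 to 17558149, forward strand), an ISWI-binding remodeller subunit studied in neural tube closure and gonads, had 1 count, in replicate 3. Its relative BPTF had 19720 counts over the 4 libraries, a ratio of 19720 with an exact counting interval of 3539 to 778900. The germ-cell markers DDX4, DAZL, SYCP1, TNP1, PRM1 and PRM2 were at 0 counts as well, while SYCP3 and ACRV1 had 0.614 ± 0.105 and 0.451 ± 0.153 CPM.

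The stretches before the annotated starts of BRDT and CECR2 are shown beside that of BRD3, an expressed BET gene, because human promoters differ widely in CG content. Each is the 250 bases before a RefSeq start (GRCh38.p14), written 5′ to 3′ on the gene's strand, with every CG dinucleotide in capitals.
BRD3 (chr9:134068027-134068276, reverse strand): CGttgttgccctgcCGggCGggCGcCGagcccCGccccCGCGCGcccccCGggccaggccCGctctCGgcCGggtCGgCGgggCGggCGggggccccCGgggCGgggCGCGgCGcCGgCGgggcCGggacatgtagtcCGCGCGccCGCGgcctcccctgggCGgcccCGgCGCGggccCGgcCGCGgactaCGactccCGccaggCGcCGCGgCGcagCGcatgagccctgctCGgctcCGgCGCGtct
BRDT (chr1:91949121-91949370, forward strand): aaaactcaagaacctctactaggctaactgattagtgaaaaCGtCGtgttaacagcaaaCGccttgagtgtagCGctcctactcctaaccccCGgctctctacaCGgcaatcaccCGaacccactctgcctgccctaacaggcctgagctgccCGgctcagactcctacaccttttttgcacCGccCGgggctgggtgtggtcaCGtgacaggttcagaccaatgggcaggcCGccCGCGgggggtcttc
CECR2 (chr22:17359699-17359948, forward strand): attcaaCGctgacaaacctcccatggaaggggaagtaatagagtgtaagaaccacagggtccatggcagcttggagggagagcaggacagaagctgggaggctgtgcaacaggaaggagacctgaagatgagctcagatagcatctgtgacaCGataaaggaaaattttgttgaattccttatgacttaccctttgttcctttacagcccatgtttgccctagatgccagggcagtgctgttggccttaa
The BRD3 stretch holds 48 CG dinucleotides, the most of any member's window, a number reached by 0.262% of the 35116 windows of the same length in the table. The BRDT stretch holds 14, reached by 44.8% of windows, and the CECR2 stretch holds 2, reached by 85.3%. Over all windows the median was 11. BRD2, the other expressed BET gene, had windows with 27, 10, 12 and 30, on both sides of the BRDT stretch. RefSeq starts were found for 34 members, 32 of them detected, whose richest window held from 3 to 48 with a median of 24. BRDT, whose other start had 19, lay inside that range. Detected with fewer than 19 in their richest window were YEATS2 (3), SP140 (4), SP100 (6), SP140L (6), BRD8 (7) and SP110 (9). So were ZMYND8 (9), KAT2A (11), BAZ2A (14), BRWD3 (14) and YEATS4 (17). CECR2 lay under the lower end of the range, which YEATS2 set. The only YEATS2 start used, at 183710239, lies inside that gene, which begins at 183697818 in GENCODE. The SP140 start used, at 230225736, likewise lies inside its gene, which begins at 230203110. Whether these cells use such starts was not tested.

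The scaffolds of the MOZ/MORF and HBO1 acetyltransferase complexes, BRD1, BRPF1 and BRPF3, were expressed within a narrow band. These proteins combine PHD fingers, a bromodomain and a PWWP domain and set which histone tail the enzyme acetylates. BRD1 had 32.4, 33.0, 33.4 and 34.6 CPM in replicates 1 to 4. BRPF1 had 28.3, 28.6, 32.1 and 29.8 CPM. BRPF3 had 46.8, 43.7, 43.2 and 44.4 CPM, above both in every library. Per kilobase the means were 5.70 ± 0.160 for BRD1, 5.42 ± 0.310 for BRPF1 and 6.73 ± 0.246 for BRPF3. On that scale BRD1 and BRPF1 did not differ beyond the spread between libraries, with a log2 ratio of 0.07 ± 0.07 and the order turned in replicate 3. This depends on length. In CPM BRD1 was higher in every library, with a log2 ratio of 0.17 ± 0.07, and on coding sequence length the ratio was 0.20. Per kilobase BRPF3 exceeded BRPF1 in 4 of 4 libraries by 1.24-fold. Of the 3 genes BRPF1 varied between libraries (adjusted p = 0.0110), with its highest value in replicate 3. Without that library BRPF1 no longer passed, and BRPF3 passed with DESeq2 size factors, with total counts and without replicate 2.

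Their 9 partner genes were all detected, at 1.47 to 12.7 CPM per kilobase with a median of 5.71. MEAF6 (12.7), a small subunit shared by these complexes, and JADE1 (6.997), an alternative HBO1 scaffold, were the highest and the acetyltransferase KAT6B (1.47) the lowest. The 3 bromodomain scaffolds stood near the level of their partners, with log2 ratios to the partner median of -0.003 ± 0.08 for BRD1, -0.08 ± 0.09 for BRPF1 and 0.24 ± 0.08 for BRPF3. Of the 9 partners 5 varied. The background for this and the partner counts below is 67.3% of detected genes and 59.2% of all genes tested.

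The acetyltransferases that also read acetyl-lysine, CREBBP with EP300 and KAT2A with KAT2B, were all detected. CREBBP and EP300 are transcriptional coactivators that acetylate histones at enhancers. CREBBP had 98.0, 87.0, 97.6 and 109 CPM. EP300 had 111, 95.03, 109 and 117 CPM. Replicate 2 was lowest and replicate 4 highest for both, a range of 1.25 and 1.23 times, and both varied (adjusted p = 1.35e-20 and 1.81e-20). Their log2 ratio per kilobase was -0.49, -0.44, -0.47 and -0.42, with EP300 1.37-fold higher. In CPM EP300 was 1.105-fold higher, and on coding sequence length the log2 ratio was -0.16.

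KAT2A and KAT2B are alternative catalytic subunits of the SAGA and ATAC coactivators. KAT2A had 53.8, 54.7, 53.3 and 55.1 CPM in replicates 1 to 4, a range of 1.03 times. KAT2B had 27.3, 26.1, 26.2 and 24.2 CPM and lay below KAT2A in every library. Neither passed the test for variation (adjusted p = 0.710 and 0.0727), but KAT2B passed with DESeq2 size factors, with total counts, and without replicate 2 or replicate 3. KAT2A was among the steadiest genes of its level: 1.39% of 2887 detected genes within 1.5 times of its mean had a smaller SD of log2 CPM. Per kilobase KAT2A exceeded KAT2B 3.13-fold, in 4 of 4 libraries, and the log2 ratio was 1.65 ± 0.09 (1.06 on coding sequence length). All 17 partner genes of these complexes were detected, around a median of 4.80 CPM per kilobase, led by the deubiquitinase USP22 (48.6) and the adaptor TADA3 (19.5), with SUPT3H (2.40) lowest. KAT2A lay above 14 of the 17 and KAT2B above 6, and 10 of the 17 varied. KAT14, an ATAC subunit, was found in the table under an older name.

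Subunits of ISWI remodellers spanned a wide range. BPTF, the largest subunit of NURF, reads methylated and acetylated histone tails through a PHD finger and a bromodomain. It had 117, 107, 111 and 129.5 CPM, highest in replicate 4 and lowest in replicate 2 (adjusted p = 1.21e-21). Per kilobase BPTF stood at 7.68 ± 0.650, below each of its 5 listed partners, of which the ATPases SMARCA1 (19.0) and SMARCA5 (18.3) were highest and HMGXB4 (8.86) lowest. In CPM the order differed: BPTF (116) lay above SMARCA1 (82.8) and HMGXB4 (53.2) and below SMARCA5 (153), RBBP4 (135) and RBBP7 (131). All 5 partners were detected and 3 varied. BAZ1B, the WSTF subunit of the WICH remodeller, had 175, 161, 173 and 184 CPM and 24.6 ± 1.31 CPM per kilobase, the third highest of the members on that scale. BAZ2A, the TIP5 subunit of the nucleolar remodeller NoRC, had 154, 139, 153 and 158 CPM. BAZ2B, its paralog, had 15.7, 13.2, 15.4 and 16.4 CPM.

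For all 4 detected remodeller subunits replicate 2 was the lowest library and replicate 4 the highest, and all 4 varied (adjusted p = 1.44e-12 for BAZ1B, 5.26e-12 for BAZ2A and 0.00356 for BAZ2B). BAZ2A exceeded BAZ2B 18.6-fold per kilobase, with a log2 ratio of 4.21 ± 0.05. That value depends on length, since BAZ2B has 20370 annotated exonic bases: the log2 ratio was 3.22 on the longest coding transcript and 3.31 in CPM. BAZ2A shares 601 exonic bases with RBMS2 on the opposite strand, a gene at 147 ± 4.55 CPM.

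ATAD2, an AAA ATPase and coactivator whose level is high in many tumours, far exceeded its paralog. ATAD2 had 92.7, 80.7, 80.8 and 88.8 CPM. ATAD2B had 13.5, 12.6, 12.7 and 14.3 CPM. Per kilobase the difference was 9.52-fold, with log2 ratios of 3.34, 3.24, 3.23 and 3.19, and no library overlapped between the genes. ATAD2 varied (adjusted p = 1.43e-10), with replicates 1 and 4 above 2 and 3, while ATAD2B did not pass the test (adjusted p = 0.161), except with total counts.

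TAF1, the largest subunit of the general factor TFIID, was detected, and per kilobase its level lay near the median of its complex. It had 81.3, 74.9, 82.3 and 82.1 CPM, with replicate 2 below the other libraries (adjusted p = 5.26e-04). Its 7.38 ± 0.325 CPM per kilobase lay at a log2 ratio of 0.05 ± 0.14 to the median of 14 other TFIID genes, 7 of which were lower. Those 14 were all detected and 7 varied, with TAF13 (29.8) and TAF9 (28.3) highest per kilobase and TAF4 (2.46) lowest. That order depends on length. In CPM TAF1 (80.2) lay above all 14, the next being TAF9 (72.95). TAF1L (ENSG00000122728, chromosome 9, 32629454 to 32635669, reverse strand), a retrotransposed copy of TAF1 known from testis, had 6, 8, 5 and 3 counts. These 22 counts correspond to 0.129 CPM over the group, with an exact Poisson interval of 0.0810 to 0.196. Of the 100-base words in the annotated TAF1L transcripts, 1.99% also occur in TAF1, and how such reads were divided between the rows is not known. The log2 ratio of TAF1 to TAF1L per kilobase was 8.43 ± 0.61, and 6.20 with a pseudocount of 0.5 CPM.

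BRD8 and YEATS4 belong to TIP60, an acetyltransferase and histone exchange complex, and YEATS4 also to SRCAP. BRD8 had 45.9, 46.6, 49.5 and 47.0 CPM in replicates 1 to 4. YEATS4 had 26.9, 27.7, 24.9 and 25.0 CPM. Per kilobase YEATS4 (15.2 ± 0.815), a gene of 1714 exonic bases, stood above BRD8 (6.70 ± 0.220), whereas in CPM it stood below. YEATS4 passed the test for variation narrowly (adjusted p = 0.0394), with replicates 3 and 4 low, and did not pass with total counts, without replicate 2 or 4, or with a mean of 1 count required of genes. BRD8 did not pass the test (adjusted p = 0.122) except without replicate 2, and it shares 132 exonic bases with KIF20A, an opposite-strand gene at 48.7 ± 2.45 CPM. All 14 partners were detected and 12 varied. The helicase RUVBL2 (70.8) and MORF4L1 (33.6) were highest per kilobase and EPC1 (1.77) lowest, around a median of 9.75.

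TRIM28 (KAP1), the corepressor that KRAB zinc finger proteins use to silence genes and retroelements, was the highest reader gene by both scales. TRIM28 (ENSG00000130726, chromosome 19, 58544091 to 58550722, forward strand) had 589, 677, 658 and 623 CPM. It held 20.1% of all counts of the 39 genes, and 98.5% of detected genes were lower per kilobase. Replicate 1 was lowest and replicate 2 highest, a range of 1.15 times (adjusted p = 2.97e-62), which at this depth passes the test with an SD of log2 CPM of 0.09. Its SD was larger than that of 46.3% of genes at a similar level. The 7 listed silencing partners were all detected and all lower per kilobase, the heterochromatin proteins CBX3 (36.0) and CBX5 (21.6) being highest and MPHOSPH8 (4.61) lowest. TRIM28 exceeded their median by 4.24 ± 0.09 on the log2 scale, and 4 of the 7 varied.

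The other TRIM readers were lower by a wide margin. TRIM33, a ubiquitin ligase of SMAD signalling, had 99.1, 91.0, 89.9 and 96.4 CPM. TRIM24, which ubiquitinates p53 and coactivates nuclear receptors, had 42.3, 39.6, 40.8 and 44.1 CPM. TRIM66, best known from testis, had 11.6, 9.52, 11.7 and 14.3 CPM. All 3 varied (adjusted p = 3.44e-05, 0.0202 and 2.45e-08), TRIM24 only with both replicates 2 and 4 included, and no library of one reached the range of another. Per kilobase TRIM28 exceeded TRIM24 34.9-fold (15.3-fold in CPM), TRIM33 exceeded TRIM24 2.17-fold, and TRIM24 exceeded TRIM66 4.54-fold, each in 4 of 4 libraries.

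TRIM66 (ENSG00000166436, chromosome 11, 8612037 to 8682694, reverse strand) was the most variable detected member. Its highest library, replicate 4, stood 1.505 times above its lowest, replicate 2, and 94.7% of genes at a similar level had a smaller SD. No other tested member reached a range of 1.3 times. The ribosomal protein gene RPL27A overlaps TRIM66 by 94 exonic bases on the opposite strand and has far more reads. RPL27A had 626, 784, 699 and 605 CPM, highest in replicate 2 and lowest in replicate 4, the reverse of TRIM66. The part of these reads in the TRIM66 values was not tested.

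ZMYND8 and ZMYND11 pair a bromodomain with a PHD finger, a PWWP domain and a MYND finger. ZMYND8 binds acetylated tails and brings NuRD to damaged chromatin, while ZMYND11 reads trimethylated histone variants in gene bodies. ZMYND8 had 78.4, 73.9, 80.8 and 84.2 CPM. ZMYND11 had 99.7, 96.4, 87.0 and 86.4 CPM. ZMYND8 was highest in replicate 4, where ZMYND11 was lowest, and both varied (adjusted p = 5.58e-06 and 3.02e-12). ZMYND11 was higher per kilobase in 4 of 4 libraries, with log2 ratios of ZMYND8 to ZMYND11 of -0.87, -0.91, -0.63 and -0.56, so the 1.5-fold mark was missed in replicate 4 only. The size of this difference depends on length: the mean was -0.74 per kilobase, -0.22 in CPM and -1.26 on coding sequence length.

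The 4 genes of the SP100 family lie close together on chromosome 2, between 230167293 and 230544090, and differed widely in level. Their products are known as interferon-induced nuclear proteins, SP100 as a component of PML bodies and SP140 as a leukocyte protein. SP100 had 96.9, 98.9, 91.7 and 87.1 CPM. SP140L had 27.9, 28.1, 27.8 and 30.2 CPM, with replicate 4 above the rest. SP110 had 15.0, 15.0, 15.5 and 15.3 CPM, and its libraries nearly coincided. SP140, the lowest detected member, had 2.65, 3.16, 3.02 and 2.67 CPM. Per kilobase the order was SP100 (7.42 ± 0.420), SP140L (5.04 ± 0.202), SP110 (2.21 ± 0.0377) and SP140 (0.515 ± 0.0457), and no neighbours in that order overlapped in any library. SP100 varied (adjusted p = 1.36e-07), with replicate 4 lowest. SP110, SP140 and SP140L did not pass the test (adjusted p = 0.915, 0.479 and 0.171), though SP140L did with total counts. SP140L exceeded SP140 9.78-fold per kilobase, with log2 ratios of SP140 to SP140L of -3.37, -3.13, -3.18 and -3.48. On coding sequence length the mean was -3.89. SP100 exceeded SP110 by 1.75 ± 0.10 on the log2 scale per kilobase and by 2.62 in CPM.

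SP110 and SP140 are transcribed away from each other from RefSeq starts that lie 100 bases apart. In GENCODE, however, SP140 begins at 230203110, inside SP110 (230167293 to 230225729), and their exons share 170 bases. SP140 had 122 counts on average and SP110 had 645, and how reads from the shared bases were divided is not known. In addition 7.62% of the 100-base words in SP140 transcripts occur in SP140L. The core of the interferon-stimulated response element, searched on both strands as GAAA, any 2 bases and GAAA again, was found in 0 of 6 windows of 300 bases around the starts of these genes, and in 3.57% of all windows in the table. Of the 34 members with a window it was found at YEATS2 alone, in the window that lies inside that gene. Haematopoietic markers summed to 0.442 to 1.02 CPM over 6 genes, PTPRC among them at 0.0117 CPM. The 6 listed PML body partners were all detected and 5 varied. PML itself (5.10) was the lowest of them per kilobase, and SP100 lay above 2 of the 6.

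PHIP, BRWD1 and BRWD3 join WD repeats to paired bromodomains and serve as substrate receptors of CUL4 ubiquitin ligases. PHIP had 150.0, 140.0, 136 and 152 CPM. BRWD1 had 79.4, 73.8, 74.4 and 85.9 CPM. BRWD3 had 30.8, 29.04, 28.7 and 34.7 CPM. All 3 varied and all 3 were highest in replicate 4 (adjusted p = 1.47e-10, 3.05e-10 and 2.51e-06). Without replicate 4, BRWD3 no longer passed the test. Per kilobase PHIP exceeded BRWD1 2.76-fold and BRWD3 4.50-fold, with SDs of the log2 ratio of 0.05 and 0.07. BRWD1 exceeded BRWD3 1.63-fold per kilobase and 2.55-fold in CPM. The ligase genes CUL4B (24.2), DDB1 (21.8) and RBX1 (13.9, the lowest of 4) were higher per kilobase than each of the 3, and all 4 varied. In CPM, PHIP (144.6) lay above CUL4A (121.8) and RBX1 (43.1) and below CUL4B (170.5) and DDB1 (304). BRWD1 (78.4) also lay above RBX1 in CPM, and BRWD3 (30.8) below it.

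ASH1L and KMT2A are histone methyltransferases that carry a bromodomain, for lysine 36 and lysine 4 of histone H3 respectively. ASH1L had 113, 94.4, 108 and 116 CPM. KMT2A (ENSG00000118058, chromosome 11, 118436464 to 118526832, forward strand) had 183, 154, 168 and 199 CPM. Replicate 2 was lowest and replicate 4 highest for both, and KMT2A had the largest range of the detected members after TRIM66 (adjusted p = 3.41e-58, and 1.42e-21 for ASH1L). Its 31305 exonic bases are the most of any member. KMT2A was the third highest member in CPM but stood at 5.62 CPM per kilobase, below all 8 listed partners. HCFC1 (26.9) and WDR5 (19.2) were the highest of these and KMT2B (7.07) the lowest, all 8 being detected and 7 varying. That order depends on length. In CPM KMT2A (176) lay below HCFC1 (242) but above the other listed partners, the next being PSIP1 (120.5).

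The YEATS proteins MLLT1 (ENL) and MLLT3 (AF9) tie acetylated histones to the super elongation complex and to the methyltransferase DOT1L. MLLT1 had 73.7, 77.3, 78.3 and 77.7 CPM. MLLT3 had 21.1, 21.4, 18.9 and 18.2 CPM. MLLT1 exceeded MLLT3 per kilobase with log2 ratios of 2.58, 2.63, 2.83 and 2.87, a 6.63-fold difference on average and 3.86-fold in CPM. MLLT1 did not pass the test for variation (adjusted p = 0.108). MLLT3 did (adjusted p = 0.00223), with replicates 1 and 2 above 3 and 4 without overlap. Of 13 partners 11 were detected, the others being ELL3 and EAF2, and 12 of the 13 varied, CDK9 (19.0) and CCNT1 (15.6) being highest per kilobase and ELL3 (0.288) lowest. MLLT1 lay above 12 of the 13 and MLLT3 above 2.

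YEATS2, the reader subunit of ATAC, had 115, 109, 108 and 119.9 CPM, highest in replicate 4, and varied (adjusted p = 2.43e-06). At 11.1 ± 0.516 CPM per kilobase it lay above 13 of the 17 SAGA and ATAC partners. The antisense row YEATS2-AS1 held 64.5 counts on average, 1.34% of the YEATS2 count.

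**Figure D3:**
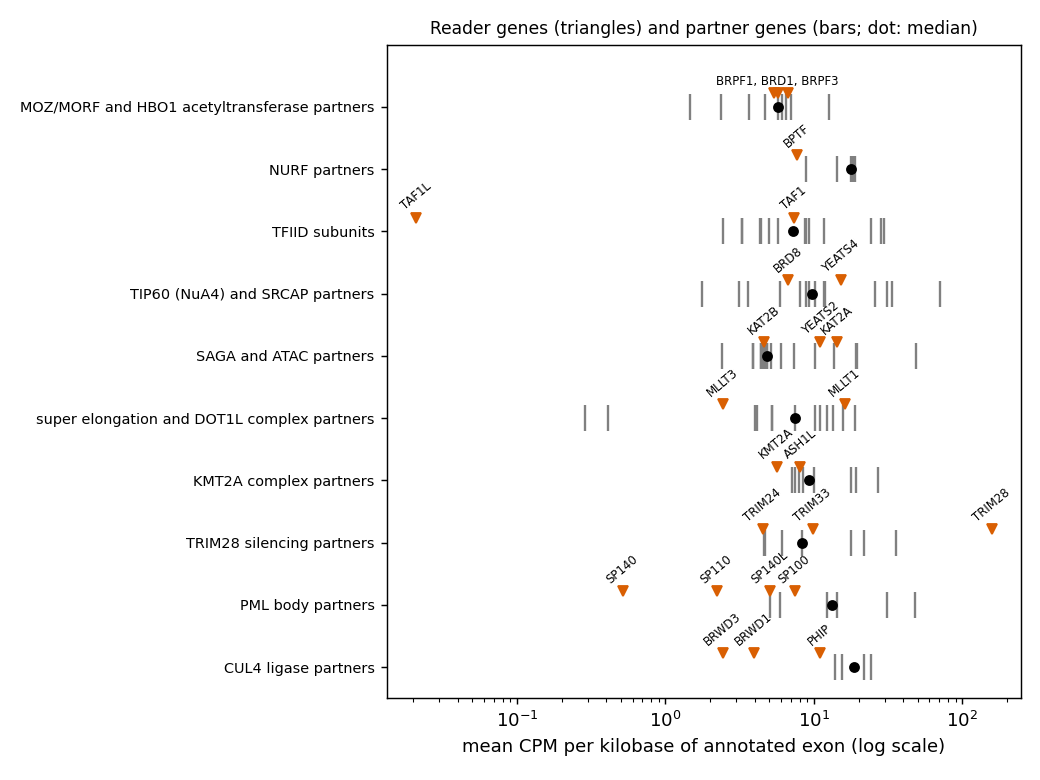
Mean CPM per kilobase of annotated exon (log axis) of reader genes (triangles, named) and of the genes of their complexes (bars, with the list median as a dot). TRIM28 lies to the right of all its partners at 158, BPTF and KMT2A to the left of all of theirs, and CECR2 and BRDT are not drawn.

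Of the 20 related pairs listed, 18 had more than 3 counts for both genes. In 17 of the 18 the same gene was higher per kilobase in 4 of 4 libraries, and in 14 the difference was 1.5 times or more in every library. The 4 others were BRD1 with BRPF1, BRPF1 with BRPF3, CREBBP with EP300 and ZMYND8 with ZMYND11. By an exact permutation of signs (two-sided), p was 0.125 in those 17 pairs, the smallest that 4 libraries allow, and 0.132 after Benjamini-Hochberg adjustment over 18 pairs. For BRD1 with BRPF1 it was 0.25. By the mean ratio, the order of no pair differed between CPM and CPM per kilobase. Within replicate 3, BRD1 lay above BRPF1 in CPM (33.4 against 32.1) and below it per kilobase (5.71 against 5.85).

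**Figure D4:**
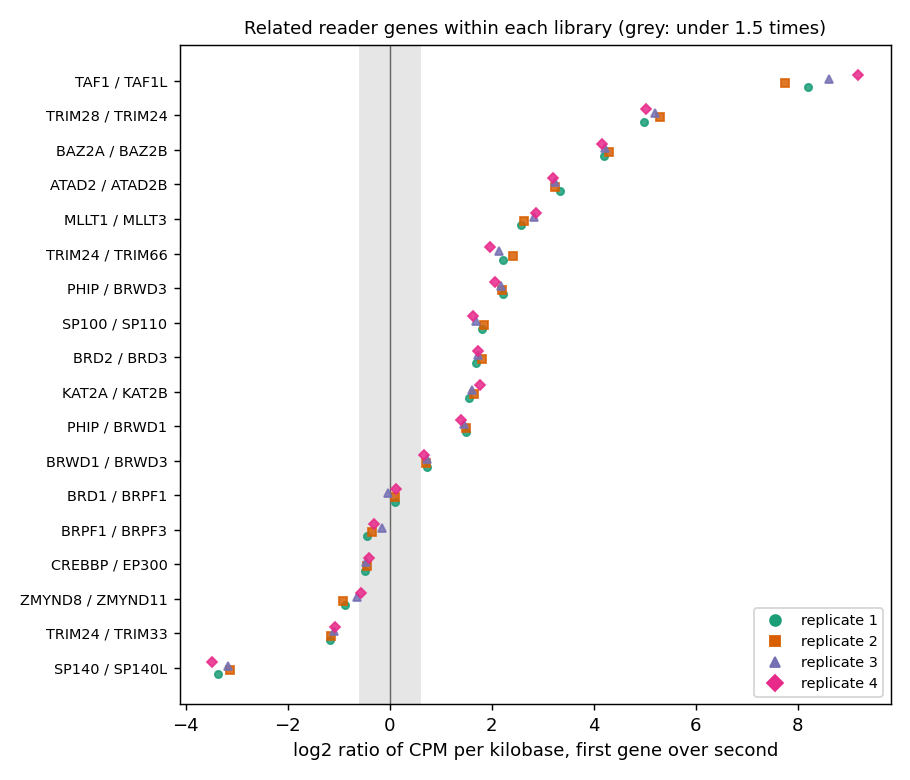
Log2 ratio of CPM per kilobase, first gene over second, in each library for 18 related pairs, with the band under 1.5 times in grey. The TAF1 ratio to TAF1L has the widest spread, from 7.75 to 9.18, and BRD1 to BRPF1 crosses 0.

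The libraries that were high or low were not spread evenly over the readers. Of the 24 varying members, 3, 4, 2 and 15 were highest in replicates 1, 2, 3 and 4, that is 62.5% in replicate 4. Over the 8730 varying detected genes the shares were 24.8%, 38.5%, 15.2% and 21.5%. The lowest library was replicate 1, 2, 3 or 4 for 2, 14, 5 and 3 members, that is 58.3% in replicate 2, against 26.2%, 26.8%, 12.7% and 34.2% of those genes. The same was counted over genes with a mean of 500 counts or more and 5000 or more exonic bases. Among the 3967 of them that varied, 35.3%, 22.9%, 16.0% and 25.8% were highest in replicates 1 to 4, and 20.7%, 37.6%, 16.0% and 25.7% were lowest. Replicates 4 and 2 were then set against each other, a pair chosen after these values were seen. On the ratio of replicate 4 to replicate 2, TRIM66 stood furthest out at 0.59 (log2), followed by KMT2A (0.38), CREBBP (0.32), BAZ2B (0.31), EP300 (0.30), ASH1L (0.29) and BPTF (0.27). At the other end stood SP140 (-0.24), MLLT3 (-0.23), SP100 (-0.18), ZMYND11 (-0.16) and YEATS4 (-0.15).

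The difference between these libraries went with exonic length, in readers and in other genes alike. The median log2 ratio of replicate 4 to replicate 2 was 0.26 over the 15 detected members of 10000 or more exonic bases, 0.06 over 17 of 5000 to 10000, and -0.06 over the 4 shorter ones. Over 11566 detected protein-coding genes the medians in the same bins were 0.11, -0.01 and -0.15. Spearman's rho between exonic length and the ratio was 0.764 over the 36 members and 0.479 over the protein-coding genes, as a description across genes that share the same libraries. Altogether 29 of 36 members (80.6%) were higher in replicate 4, against 40.3% of protein-coding genes. With libraries scaled to total counts the shares were 80.6% and 56.8%, since that scaling moved the median of protein-coding genes from -0.05 to 0.04. The part of exonic length in the readers' pattern was not tested. With total counts 29 members varied, 20 of them highest in replicate 4 and 23 lowest in replicate 2. The same counts over all genes under that scaling are not reported here, so these are not read as a result about the readers.

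**Figure D5:**
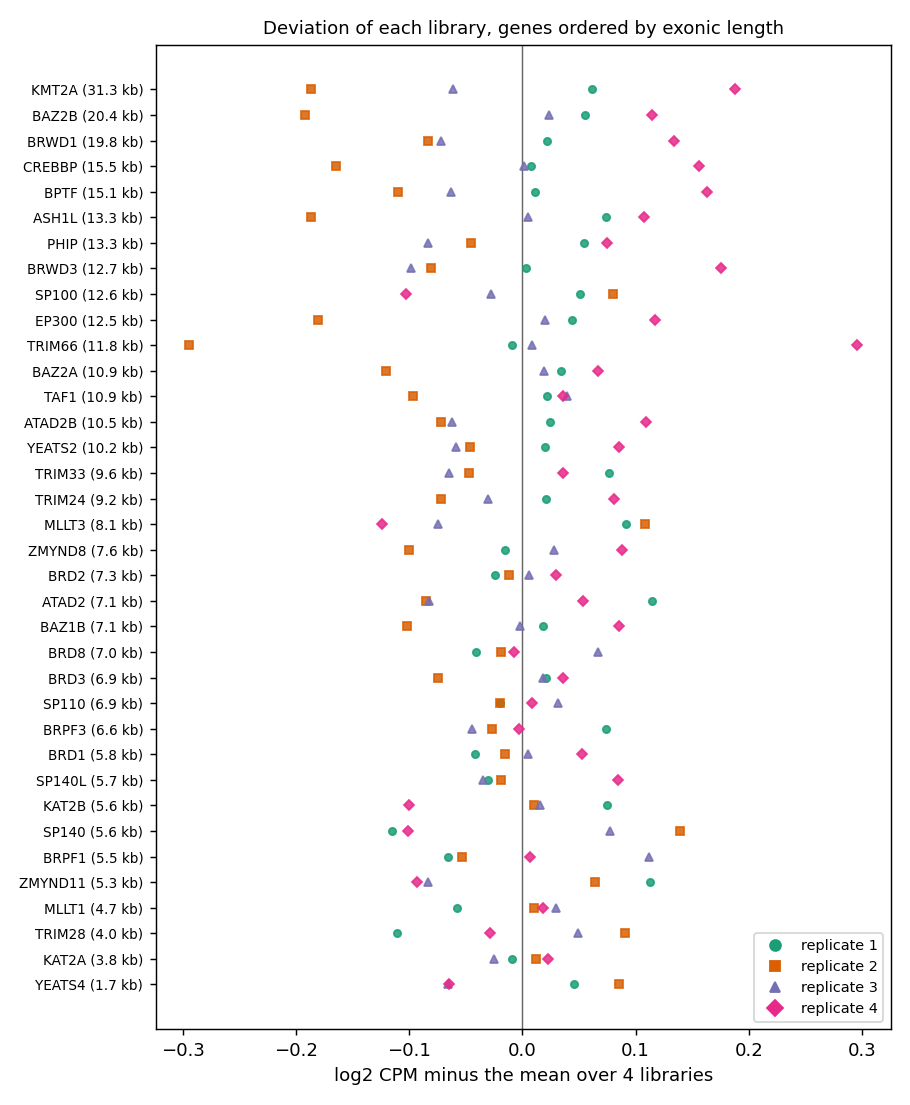
Log2 CPM minus the mean over libraries for the 36 detected reader genes, ordered by exonic length (in kilobases beside each name). Replicate 4 lies to the right and replicate 2 to the left for most genes at the long end, among them KMT2A, CREBBP and BPTF, while SP100 and MLLT3 show the opposite order.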

How the data were processed

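Total RNA of 4 libraries of KDAC8 knockout HT1080 cells was sequenced after ribosomal RNA depletion, and grouped by the titles in the labels. GRCh38 is named per the submitters' processing notes, as are RSEM 1.3.3, Bowtie2 2.5.4, DESeq2 1.46.0 and Trimmomatic 0.39, without their roles. Which annotation release and strand setting were used is not given in the sources used here. What the authors deposited are expected counts, 1 row for each Ensembl gene, recognised from values that are not whole in 10.6% to 11.9% of rows, and these can split a read among similar rows. They were rounded and scaled to CPM with edgeR 4.0.16 (TMM; factors 1.02, 0.963, 0.988 and 1.03). A count of 0 in 1 library allows up to 0.0662 to 0.0742 CPM (3 counts); such limits and the Poisson intervals reflect counting error alone.

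Testing was by gene, from a mean count of 10 upward, by chi-square (3 degrees of freedom, Benjamini-Hochberg at 0.05), a test checked on simulated data. Ratios used a pseudocount of 0.01 CPM and GENCODE release 29 lengths, which matched 57055 of 60675 rows. Members and lists were chosen with earlier results of these data known. All 39 members are reported; from each partner list the 2 highest and the lowest gene per kilobase are named (for the PML body list only the lowest, the others being not reported here), with genes outside that rule named where a result turns on them. A planned comparison of protein sequences was not run. Alternatives were DESeq2 1.42.0 size factors, total counts, other filters, thresholds, lengths and pseudocounts, and leaving out each replicate.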

Additional observations from a re-analysis of the deposited data

Results flagged for a closer look

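In each set of 4 library values the gap of the extreme library was compared with the whole range. This covered 37 member levels, 18 pair ratios and the median level, 56 sets in all, of which 4 passed, where chance flags about 1 in 20. BRD3 and TAF1 each had 1 low library, replicate 2, at 48.6 and 74.9 CPM, with most of the range in that gap (shares of 0.842 and 0.866). SP140L had 1 high library, replicate 4, at 30.2 CPM. The log2 ratio of BRD1 to BRPF1 per kilobase had its low value in replicate 3, at -0.03475, where BRPF1 was highest. TAF1 passed the test for variation and BRD3 and SP140L did not.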

How the results depend on the processing

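Detection of 36 members held at 0.5 and 2 CPM, with DESeq2 size factors, with total counts and without any 1 replicate, and 33 reached 1 CPM per kilobase. The count of varying members was 24, and 26 with DESeq2 size factors, 29 with total counts, 23 and 24 with a mean of 1 or 50 counts required, and 19 to 24 without 1 replicate. With a range of 1.5 times also required it was 1. The median member level of 54.2 CPM became 6.73 per kilobase of exon and 77.6 over detected members only, and 53.5 to 54.7 without 1 replicate. Separated pairs numbered 14 or 15 under every alternative run, and no pair changed order by its mean ratio. Ratios moved by more than their SD for 16 of 18 pairs on coding sequence length and 11 on the longest coding transcript. Of 96 partner genes 94 were detected throughout, and 68 varied, or 56 to 68 without 1 replicate and 69 under both other scalings, alternatives added after seeing the data. In the main setting 58.7% of protein-coding rows were detected and 67.3% of detected genes varied. The shares over all genes under the alternatives are not reported here, so the shifts in these counts are not read as particular to the members or partners. No paired analysis was possible because the labels give 1 group. Depth limits BRDT and CECR2, with 0 and 1 counts. TAF1L was below the mean of 10 counts required for the test of variation and did not pass it where a mean of 1 was required.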
